A study of Homo sapiens with 8 samples.

Results

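To separate the response to the inducer from the response to the induced gene, a control line carrying GFP was treated in the same way as the line carrying SMARCB1. The GFP line with and without doxycycline (Dox) made up 4 of the 8 libraries, chosen by their sample titles. All 69215 annotated genes were considered, and 15931 of them had enough counts to be tested. The cells were G401, an established rhabdoid kidney tumor line without SMARCB1, a core member of the SWI/SNF chromatin remodelling complexes. Both GFP groups carried the GFP gene under a Tet-On system. GFP Dox received 0.1 µg/ml doxycycline for 12 h (n = 2) and GFP DMSO received the solvent dimethylsulfoxide for 12 h (n = 2). The SMARCB1 line received the same pair of treatments, with 2 libraries each, and is used here for comparison and for the estimate of the spread.

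In a Tet-On system, a transactivator binds its promoter and switches on the transgene when doxycycline is present. Doxycycline is a tetracycline antibiotic, and tetracyclines block bacterial ribosomes. Mitochondria descend from bacteria and translate the mRNAs of their own genome on ribosomes of bacterial type, so doxycycline at high doses is known to slow mitochondrial translation and to switch on the integrated stress response through ATF4. Tetracyclines also bind metal ions. A fluorescent protein made in large amounts can load the folding machinery. The genes of these processes are therefore the ones examined below.

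Several features limited GFP as a control. The transgene itself was not analysed here, so neither the induction of GFP nor the labels of GFP Dox and GFP DMSO were checked against it. Doxycycline and GFP were always given together, so their effects cannot be told apart. Whether the line was a clone was not stated, and it differed from the SMARCB1 line without Dox in genes such as COL1A1. The study's methods describe 6 plates pooled per condition and duplicate experiments, without saying that these were the libraries of a group or what each started from. P-values therefore measure the spread between these libraries, which may be technical.

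Gene counts summed to 33026439 and 37597477 in GFP DMSO, against 29632090 and 35680833 in GFP Dox. A GFP library detected 20839 to 21713 genes (1 count or more), the lowest number being that of GFP Dox replicate 1. The cell type was checked by its markers. SMARCB1 had 0 counts in all 4 libraries, while VIM, an intermediate filament of mesenchymal cells, ran between 678 and 755 CPM (counts divided by library size, itself corrected with TMM factors). The epithelial keratins KRT8 and KRT18, which overlap each other on opposite strands, ran between 503 and 573 and between 387 and 420 CPM. Of the markers of other cells, CDH16 (kidney tubule) had 0 counts, PTPRC (leukocytes) and the fibroblast gene DCN at most 1 and PECAM1 (endothelium) at most 3 in a library. COL1A1, a collagen that fibroblasts also make, ran between 480.4 and 576 CPM. In SMARCB1 DMSO it had 21.0 and 16.7 CPM, so the lines were not matched in this gene before Dox, which limits comparisons between them. NPHS1 (podocytes) had 1 and 3 counts in GFP DMSO against 8 and 6 in GFP Dox, a level too low to enter the test.

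RNA levels in GFP Dox lay close to those in GFP DMSO. Of the 15931 genes tested, 0 (0%) passed a Benjamini-Hochberg adjusted p of 0.05 in edgeR's quasi-likelihood test, and DESeq2 and limma called 0 as well. The smallest adjusted p was 1. At an unadjusted p under 0.05 there were 118 genes higher with Dox (0.741% of those tested) and 148 lower (0.929%), together 1.67%. Without any effect a share near 0.05 would pass, so this test was cautious and its 0 calls are weaker evidence of no effect. In a fit of the 4 GFP libraries alone with the replicate number as a block, 807 of the 15931 genes passed this threshold and 2 were called. That number is near the share of 0.05 named above for no effect. The median log2 fold change over all genes was 0.0045.

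The libraries were also compared in pairs, over the 9847 genes of at least 5 CPM. The median absolute log2 difference was 0.0872 between the GFP DMSO replicates and 0.0891 between the GFP Dox replicates. Between a Dox and a DMSO library it was 0.0692 and 0.0569 where the replicate numbers were the same. Where the numbers differed it was 0.0819 and 0.0953. GFP DMSO replicate 1 and GFP Dox replicate 2 lay slightly farther apart than replicates did, and the other treated and untreated pairs lay closer. Replicates always differ in number, and libraries of the same number were the closest. The distance between replicates may thus hold a difference between the numbers, so this comparison does not place the Dox effect within replicate noise. In 2170 genes (13.6%) both Dox libraries lay above both DMSO libraries, and in 2097 (13.2%) both lay below. With so few libraries such a separation also arises by chance, so these shares serve as a background and do not count changed genes.

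**Figure D1:**
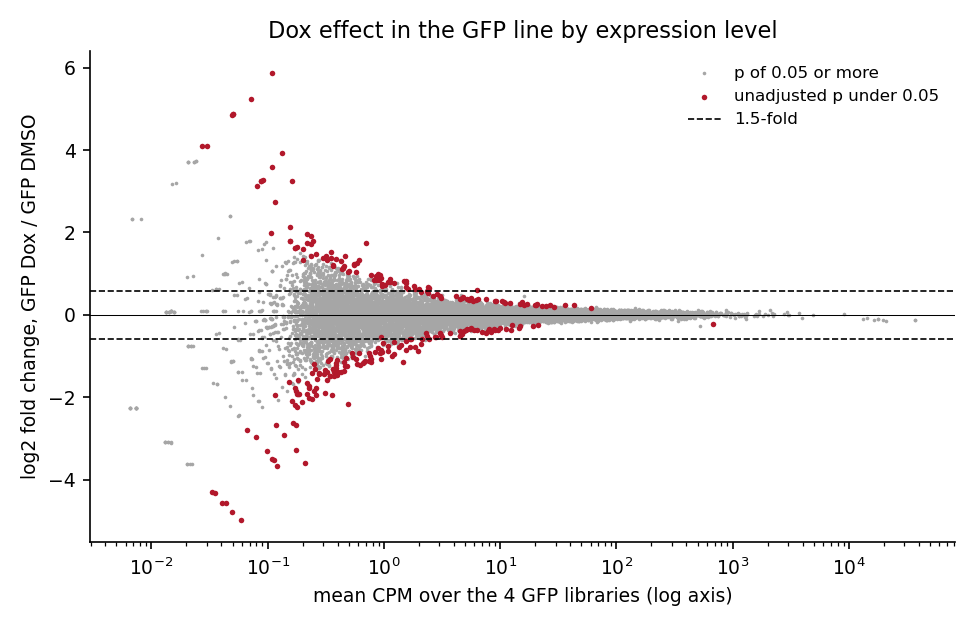
Log2 fold change of GFP Dox over GFP DMSO against mean CPM on a log axis for the 15888 tested genes with a count in a GFP library; the 266 genes with an unadjusted p under 0.05 are red and dashed lines mark 1.5-fold. The cloud narrows as the level rises, and among the 6636 genes of at least 20 CPM the largest absolute log2 fold change was 0.26.

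A missed threshold does not bound an effect, so each gene's 95% interval was used to ask how large an effect these libraries could still hold. A gene is said here to lie inside 1.5-fold when one-sided tests against 1.5-fold in both directions passed at an adjusted p under 0.05 (edgeR estimates, Benjamini-Hochberg). By this measure 10770 genes (67.6%) lay inside 1.5-fold and 12744 (80%) inside 2-fold. The genes inside 1.5-fold held 99.4% of all gene counts of the GFP libraries. Of the others, 3507 had a mean under 1 CPM and 1564 a mean of 1 to 5 CPM.

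The limit followed the expression level closely. Among the 3507 genes under 1 CPM, 0 lay inside 1.5-fold and 536 (15.3%) inside 2-fold, and the outer end of the 95% interval stood at 2.87-fold in the median gene. Among the 2577 genes of 1 to 5 CPM, 1013 (39.3%) lay inside 1.5-fold and 2363 (91.7%) inside 2-fold. From 5 to 20 CPM, 3122 of 3211 genes (97.2%) lay inside 1.5-fold, and the 2 that did not lie inside 2-fold were the mitochondrial rRNAs MT-RNR1 and MT-RNR2. At this level and above the data bounded nearly every gene. From 20 to 100 CPM, 4648 of 4649 genes lay inside 1.5-fold. The exception was CDC20B, named here for that reason after its values were seen, whose log2 fold change was -0.0028 with a 95% interval from -0.66 to 0.65. All 1987 genes over 100 CPM lay inside 1.5-fold, and their median gene had an outer bound of 1.15-fold. For 89 genes with 0 counts in at least 1 of the GFP groups no interval could be set.

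**Figure D2:**
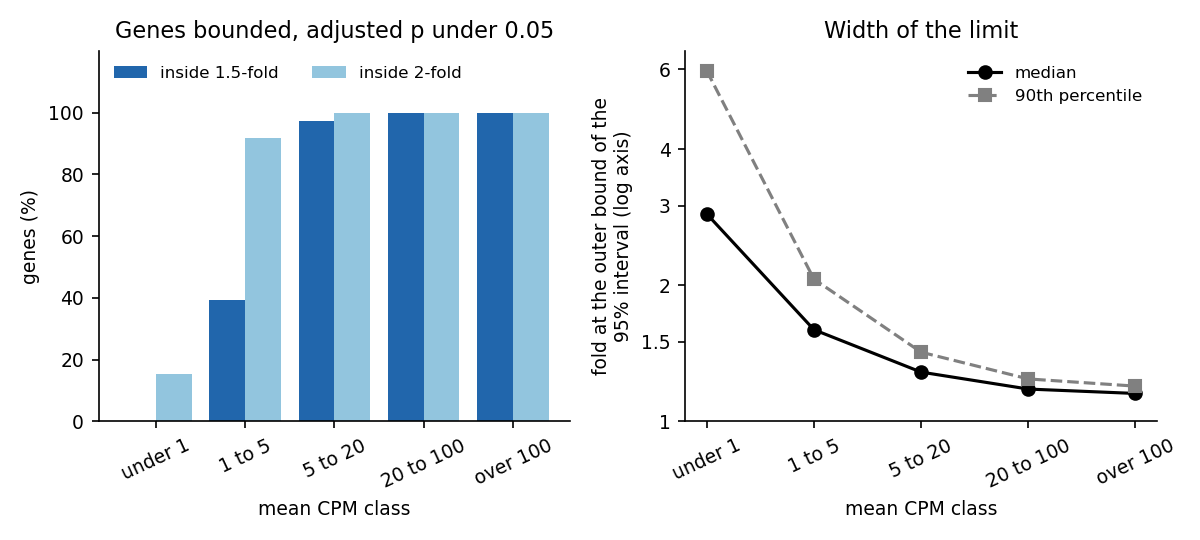
Left, the percentage of genes in each class of mean CPM that lay inside 1.5-fold (dark bars) or inside 2-fold (light bars); right, the fold at the outer bound of the 95% interval, as the median (circles) and 90th percentile (squares) of each class, on a log axis. The median bound falls from 2.87-fold under 1 CPM to 1.15-fold over 100 CPM.

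The mitochondrial genome encodes 13 mRNAs for subunits of the respiratory chain and the ATP synthase, and 2 rRNAs of the mitochondrial ribosome. None of the 13 mRNAs was called, and all 13 lay inside 1.5-fold. All genes of the mitochondrial genome together, rRNAs included, took 21.54% and 21.02% of the gene counts in GFP DMSO against 18.9% and 20.86% in GFP Dox. Both Dox libraries were thus below both DMSO libraries, with GFP Dox replicate 2 just below GFP DMSO replicate 2. The shares were 21.28% ± 0.368 in DMSO and 19.88% ± 1.39 in Dox (SD, n = 2), a difference of -1.4 percentage points. An exact permutation test over the 4 libraries, two-sided, gave p = 0.333, which is the smallest p that 2 libraries against 2 can give. In bulk RNA, fewer cells of a kind and less RNA per cell cannot be told apart.

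MT-CO2, a core subunit of cytochrome c oxidase on the mitochondrial chromosome at positions 7586 to 8269 (plus strand), had the highest level per kilobase of exon and the largest fold change of the 13. Its level was 22272 and 21943 CPM in GFP DMSO and 19296 and 20759 CPM in GFP Dox. The Dox libraries lay lower, and the gap between them was wider than that between the DMSO libraries. The log2 fold change was -0.14 (SE 0.105; edgeR, unadjusted p 0.19), and its 95% interval ran from 0.778-fold to 1.05-fold. MT-ND6, the one mRNA read from the other strand, had 16.6 and 19.3 CPM in GFP DMSO and 14.8 and 21.3 CPM in GFP Dox, with a log2 fold change of 0.02. The median over the 13 mRNAs was -0.10, against 0.0045 over all genes tested. In 4 of the 13, both Dox libraries lay below both DMSO libraries, where 13.2% of all genes did so. Without GFP Dox replicate 1 the median was -0.0129, and without GFP Dox replicate 2 it was -0.20, so the size of this shift rested on GFP Dox replicate 1. That library also had the fewest counts and the fewest genes detected, and the part of either in this shift was not tested.

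The mitochondrial rRNAs had few counts, 868 and 427 together in GFP DMSO against 1234 and 342 in GFP Dox. How library preparation treated rRNA was not examined, so no level in the cells can be read from these counts. MT-RNR2, the large rRNA, had 19.1 and 7.69 CPM in GFP DMSO and 29.7 and 7.21 CPM in GFP Dox. The replicates numbered 1 were the higher in both groups, and the groups overlapped. No fold could be bounded for either rRNA.

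The mitochondrial ribosome, which tetracyclines can bind, was then examined through the nuclear genes for its proteins. Of 82 such genes tested, 0 were called and 75 lay inside 1.5-fold, with a median log2 fold change of 0.009. MRPL3, the one with the highest level per kilobase, had 133 and 131 CPM in GFP DMSO and 140.1 and 129 CPM in GFP Dox. At an unadjusted p under 0.05 there were 1 higher and 2 lower, against 0.741% and 0.929% of all genes. The lower ones had means from 1 to 5 CPM, where 2.21% of genes passed in either direction. MRPL38, a large-subunit protein, had 97 and 88 counts in GFP DMSO against 43 and 64 in GFP Dox, a log2 fold change of -0.70 (SE 0.248; edgeR, unadjusted p 0.00961). It was the only member not inside 2-fold, and at 1.40 to 2.87 CPM it was among the scarce ones. MRPL46 had a log2 fold change of -0.53 and MRPS22, which overlaps COPB2 on the opposite strand, of 0.22.

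The 27 tested translation factors and tRNA synthetases of mitochondria had 0 calls, and 26 lay inside 1.5-fold. Among them IARS2, which charges the isoleucine tRNA, had 156 and 167 CPM in GFP DMSO and 159 and 170.2 CPM in GFP Dox. The 78 nuclear-encoded subunits of oxidative phosphorylation also had 0 calls and 73 inside 1.5-fold. ATP5F1B, the catalytic beta subunit of the ATP synthase, had 268 and 283 CPM in GFP DMSO and 286 and 291 CPM in GFP Dox, which did not overlap but differed by only 0.07 on the log2 scale. All 17 mitochondrial chaperones and proteases, the genes of the mitochondrial unfolded protein response, lay inside 1.5-fold. The chaperonin HSPD1, which shares a promoter region with HSPE1, had 353 and 378 CPM in GFP DMSO and 387 and 385 CPM in GFP Dox, with a 95% interval of its log2 fold change from -0.08 to 0.24.

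ATF4 is the transcription factor through which cells answer amino acid shortage and mitochondrial distress. Its mRNA, named here for that role after its values were seen, had 219.9 and 210.1 CPM in GFP DMSO and 208 and 206.1 CPM in GFP Dox, with a log2 fold change of -0.05. Of the 37 tested ATF4 targets and genes of the integrated stress response, 0 were called and 32 lay inside 1.5-fold, with a median of -0.021. PSAT1, an enzyme of serine synthesis, was the most abundant per kilobase. It had 465 and 583 CPM in GFP DMSO and 479 and 549.9 CPM in GFP Dox, so the groups overlapped. ALDH1L2, a mitochondrial folate enzyme, had the largest fold change among members of at least 5 CPM, at -0.36 (SE 0.196; edgeR, unadjusted p 0.0795). CHAC1, a glutathione-degrading enzyme named here after its values were seen, had 1.39 and 1.33 CPM in GFP DMSO and 1.88 and 1.99 CPM in GFP Dox. Its log2 fold change of 0.51 had an interval from -0.04 to 1.07, so a doubling of CHAC1 could not be bounded at this depth. CHAC1, VLDLR and STC2 were the 3 members not inside 2-fold.

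Genes of other stress responses were bounded more tightly where they were expressed. All 25 endoplasmic reticulum stress genes lay inside 1.5-fold. Among them the chaperone CALR had 747 and 711 CPM in GFP DMSO and 737 and 707 CPM in GFP Dox. Of 21 tested targets of NRF2, the regulator of the antioxidant response, 20 lay inside 1.5-fold, with the exception of AKR1C1. The ferritin light chain gene FTL had a log2 fold change of 0.002 and an interval from -0.19 to 0.20. Of 12 tested metallothioneins and zinc transporters, 11 lay inside 1.5-fold, the exception being SLC39A1, and 6 metallothionein genes of the MT1 group were too scarce to be tested. SLC30A1, a zinc exporter that metal-responsive transcription switches on, had 62.6 and 64.8 CPM in GFP DMSO and 60.7 and 58.1 CPM in GFP Dox, a log2 fold change of -0.10.

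The cytosolic heat shock genes, which code for chaperones that refold proteins, were, of the 27 lists, the one with the largest share of members whose groups did not overlap in 1 direction. All 17 tested lay inside 1.5-fold and 0 were called. In 9 of the 17 both Dox libraries lay above both DMSO libraries, where 13.6% of all genes did so, and in 0 of the 17 both lay below. The median log2 fold change was 0.09, and it stayed between 0.06 and 0.10 without each library in turn and under each scaling between 0.09 and 0.11. HSP90AB1, the constitutive HSP90, had 1582 and 1722 CPM in GFP DMSO and 1708 and 1796 CPM in GFP Dox. These groups overlapped. DNAJB4, a co-chaperone on chromosome 1 (positions 77979175 to 78017964), had 20.7 and 17.2 CPM in GFP DMSO and 22.5 and 22.9 CPM in GFP Dox. Its log2 fold change of 0.26 (SE 0.116) was the largest of the list (edgeR, unadjusted p 0.0335, adjusted p 1). HSPA1A and HSPA1B, the stress-inducible HSP70 genes, had 0 counts in all 4 GFP libraries. They are near-identical copies, and reads mapping to several places had been left out of the counts, so no level can be read from these zeros.

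Cytosolic translation genes were bounded tightly, and the ribosomal proteins had the smallest median outer bound of the 27 lists, 1.15-fold. The 79 ribosomal protein genes had log2 fold changes between -0.13 and 0.12, a median of 0.017, 0 calls and 79 inside 1.5-fold. RPS2 had 2018 and 2020 CPM in GFP DMSO and 1994 and 2006 CPM in GFP Dox. RPL22, the member with the largest fold change, had 85.8 and 86.6 CPM in GFP DMSO and 79.3 and 78.3 CPM in GFP Dox, a log2 fold change of -0.13 (edgeR, unadjusted p 0.112). Many ribosomal protein genes have processed copies elsewhere in the genome, so part of their reads may not have been counted. Of 54 initiation and elongation factors, 53 lay inside 1.5-fold, with EEF1G as the exception, and PABPC1, the cytoplasmic poly(A)-binding protein, had a log2 fold change of -0.01. All 22 cytosolic aminoacyl-tRNA synthetases lay inside 1.5-fold. RARS1 had 149 and 145 CPM in GFP DMSO and 162 and 156 CPM in GFP Dox, which was its list's highest level per kilobase. EPRS1 had the largest fold change of these synthetases, 0.16 on the log2 scale, with overlapping groups.

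**Figure D3:**
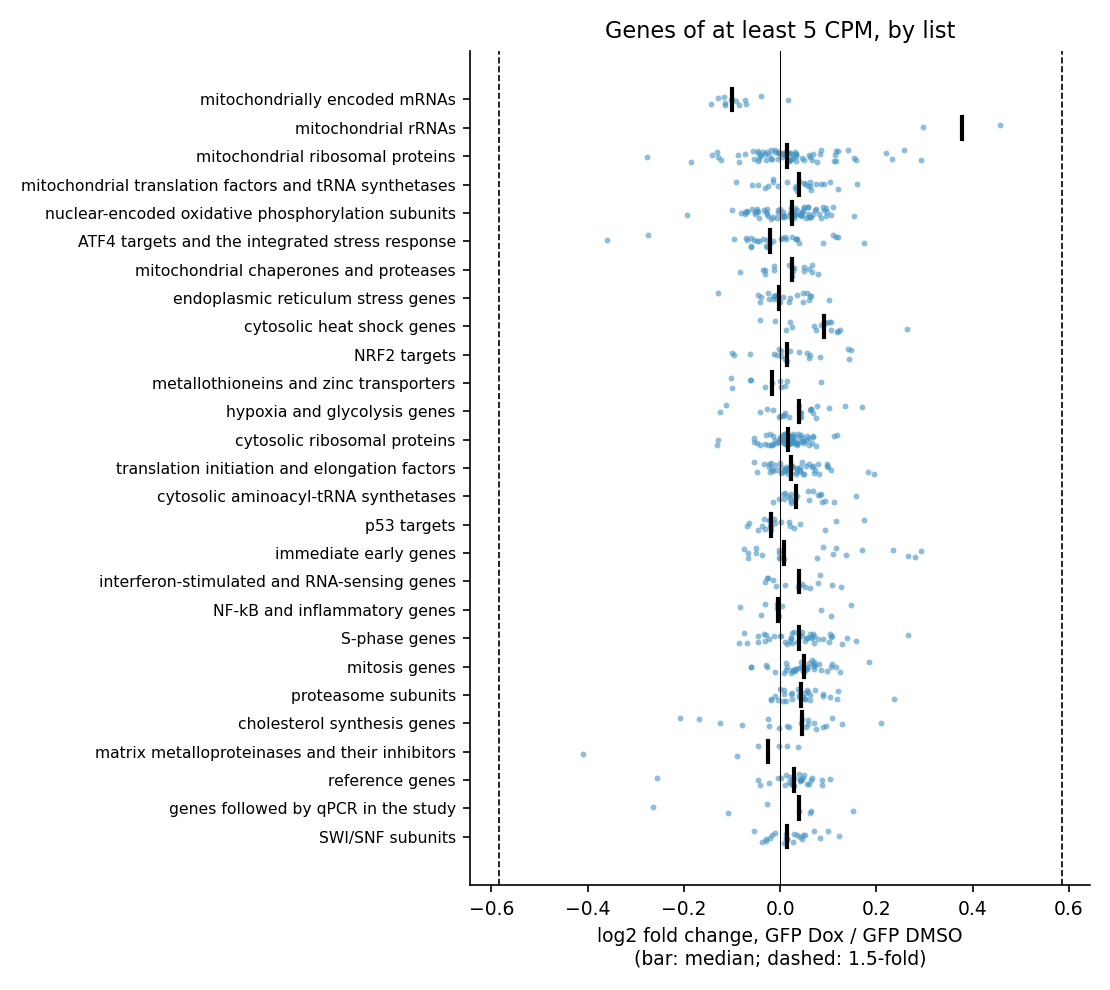
Log2 fold change of GFP Dox over GFP DMSO for the members of 27 gene lists that had a mean of at least 5 CPM; each point is a gene, bars are medians over these genes and dashed lines mark 1.5-fold. All points lie between the dashed lines, the mitochondrial mRNAs sit slightly to the left of 0 and the heat shock genes slightly to the right.

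Outside these processes, the lists showed scattered low genes and no call. All 44 S-phase genes and 39 of 40 mitosis genes lay inside 1.5-fold. The replication clamp gene PCNA had 143 and 146 CPM in GFP DMSO and 157 and 146 CPM in GFP Dox, and the kinetochore motor gene CENPE had a log2 fold change of 0.18 (edgeR, unadjusted p 0.0612). Both Dox libraries lay above both DMSO libraries in 13 mitosis genes and in 13 of 32 proteasome subunits, where 13.6% of all genes did so. All 32 proteasome subunits lay inside 1.5-fold, and PSMC3, an ATPase of the regulatory particle, was the 1 with an unadjusted p under 0.05, with a log2 fold change of 0.24 (edgeR, p 0.0433). Of 23 p53 targets 21 lay inside 1.5-fold, of 30 hypoxia and glycolysis genes 28, and of 23 cholesterol synthesis genes 22. Of 25 SWI/SNF subunit genes 24 lay inside 1.5-fold, the exception being SMARCB1 with its 0 counts, and PHF10, a subunit of the PBAF complex, had 193 and 195 CPM in GFP DMSO and 196 and 195 CPM in GFP Dox. Of 24 immediate early genes, which answer within minutes to serum and stress, 19 lay inside 1.5-fold. FOS had 13.5 and 12.6 CPM in GFP DMSO and 15.7 and 16.3 CPM in GFP Dox, a log2 fold change of 0.29 (edgeR, unadjusted p 0.0685).

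Many inflammatory genes were too scarce to be tested, and what passed an unadjusted threshold there rested on few reads. Of 37 interferon-stimulated and RNA-sensing genes 23 were expressed enough to be tested, and 15 lay inside 1.5-fold. IRF7, a transcription factor of the interferon response, had 19 and 23 counts in GFP DMSO against 2 and 8 in GFP Dox. Scaled to library size this was a ratio of 0.255, with a 95% interval of 0.114 to 0.516 that covers counting error only. Its unadjusted p was 0.00352 and its adjusted p 1 (edgeR). Of 14 tested NF-kB and inflammatory genes 10 lay inside 1.5-fold. CCL5, a chemokine and the only one of them with an unadjusted p under 0.05, had 7 and 6 counts in GFP DMSO against 1 and 0 in GFP Dox, a ratio of 0.0824 with a counting interval from 0.00194 to 0.548. Among 12 tested matrix metalloproteinases and their inhibitors, 1 was higher and 3 were lower at an unadjusted p under 0.05, against 0.741% and 0.929% of all genes, and 5 lay inside 1.5-fold. In both directions together 4.48% of genes under 1 CPM passed, where MMP13 and MMP19 stood. From 1 to 5 CPM, where MMP16 stood, 2.21% passed. MMP15, a membrane-bound protease on chromosome 16 (positions 58025754 to 58046901), had 9.21 and 9.74 CPM in GFP DMSO and 6.82 and 7.43 CPM in GFP Dox, a log2 fold change of -0.41. MMP16 was the higher one, at 0.39 (edgeR, unadjusted p 0.0449). MMP19 had 19 and 34 counts in GFP DMSO against 12 and 12 in GFP Dox, and MMP13 had 8 counts in GFP DMSO replicate 1 and 0 in the other libraries.

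Reference genes are used to normalise qPCR and blots, so their limits matter in a Tet-On line. These limits are relative to the scaled libraries, so a change shared by most genes would not be seen. Of 30 commonly used reference genes, 0 were called and 30 lay inside 1.5-fold, with a median log2 fold change of 0.029. RAB7A, a small GTPase of late endosomes on chromosome 3 (positions 128693669 to 128825942), had the tightest interval, 0.907-fold to 1.14-fold, with 286 and 264 CPM in GFP DMSO and 285 and 274 CPM in GFP Dox. ACTB had 8740 and 9135 CPM in GFP DMSO and 9379 and 8847 CPM in GFP Dox, with overlapping groups. TBP, a low reference gene, had 15.5 and 15.9 CPM in GFP DMSO and 14.6 and 18.6 CPM in GFP Dox, and its outer bound was 1.26-fold. The widest interval was that of CHMP2A, an ESCRT subunit gene, which had 11.0 and 10.2 CPM in GFP DMSO and 9.19 and 8.61 CPM in GFP Dox. The CHMP2A groups did not overlap, and its log2 fold change was -0.26 with an interval from 0.693-fold to 1.01-fold (edgeR, unadjusted p 0.0644).

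**Figure D4:**
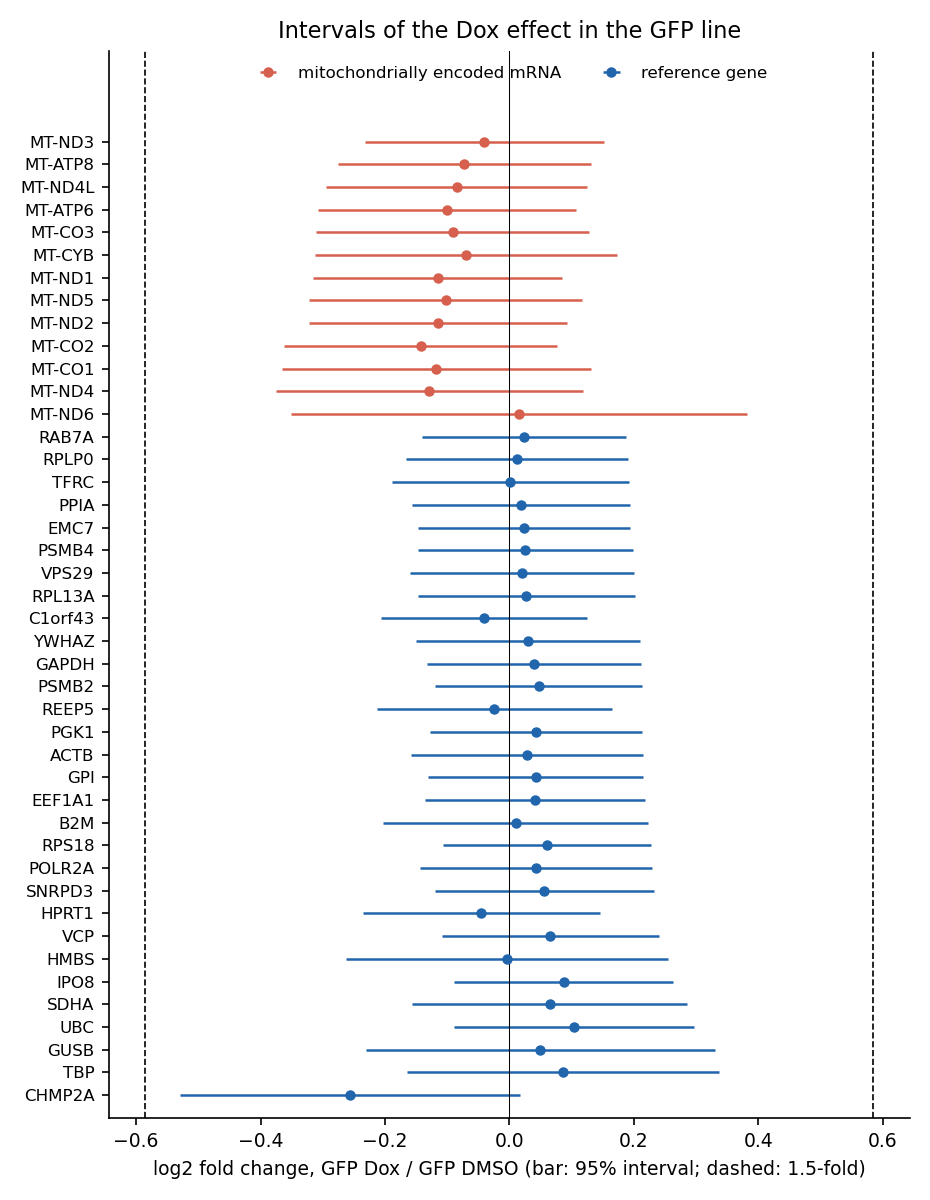
Log2 fold change of GFP Dox over GFP DMSO with its 95% interval for the 13 mitochondrially encoded mRNAs (red) and the 30 reference genes (blue), each sorted by the outer bound; dashed lines mark 1.5-fold. All 43 intervals lie between the dashed lines and cover 0, and CHMP2A reaches farthest.

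For the control transcripts that the study followed by qPCR, the primer pairs show which stretch of each RNA was measured there. The study measured them in nuclear and cytoplasmic fractions or in polysome fractions, and its fold changes there followed a longer induction. Its nuclear and cytoplasmic values were set against a cytosolic rRNA, which was not examined here. Those measures differ from the counts of the 12 h libraries. The pairs are printed 5′ to 3′ as the study's primer list gives them, and were placed by exact match to transcripts of GENCODE v44 on GRCh38. MALAT1, a nuclear-retained long noncoding RNA, is amplified within exon 1 (chr11:65500570-65500589 and chr11:65500747-65500766, plus strand, product of 197 bases). S14 matched RPS14 only, a small-subunit ribosomal protein mRNA, in exons 2 and 3 (chr5:150447626-150447648 and chr5:150446901-150446922, minus strand, product of 127 bases on the spliced RNA). The GAPDH pair lies in exon 4 (chr12:6536706-6536723 and chr12:6536740-6536759, plus strand, product of 54 bases), and it also matched the processed copies GAPDHP38 and GAPDHP58, which had at most 3 and 0 counts in a GFP library.
MALAT1 forward: gaaggaaggagcgctaacga
MALAT1 reverse: taccaaccactcgctttccc
S14 forward: gtgtctgccatatctttgcatcc
S14 reverse: ggtgaggattcatctcggtctg
GAPDH forward: ccacccatggcaaattcc
GAPDH reverse: tgacaagcttcccgttctca

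Of these controls, GAPDH and RPS14 were close to equal in all 4 libraries. GAPDH had 2137 and 2194 CPM in GFP DMSO and 2210 and 2242 CPM in GFP Dox, with an interval from 0.912-fold to 1.16-fold. RPS14 had 407 and 395 CPM in GFP DMSO and 413 and 396 CPM in GFP Dox, with a log2 fold change of 0.01. MALAT1 had 569 and 574 CPM in GFP DMSO and 429.6 and 522 CPM in GFP Dox. The Dox libraries of MALAT1 lay lower and farther apart, with GFP Dox replicate 1 the lowest. Its log2 fold change was -0.26 (SE 0.134; edgeR, unadjusted p 0.0627), and it lay inside 1.5-fold. It was -0.13 without that library. In a fit of the 4 GFP libraries alone the unadjusted p of MALAT1 was 0.0027 (edgeR), and 0 genes were called. With the replicate number as a block, that fit called MALAT1.

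The qPCR list used here held 13 targets of the study's primers, with GAPDH and MALAT1 but without RPS14 and some others. Of these 13 genes, 7 lay inside 1.5-fold and 11 inside 2-fold, and 0 had an unadjusted p under 0.05. The 6 others were C2orf72, GATA6, ATOH8, FOXA1, CCR1 and SKAP1, which all had a mean under 2 CPM. CHST2, a sulfotransferase, had 12.0 and 12.8 CPM in GFP DMSO and 13.5 and 14.1 CPM in GFP Dox, a log2 fold change of 0.15. In the SMARCB1 line it had only 2 and 2 counts in DMSO, under the floor of 3 counts, against 39 and 17 in Dox, so no fold is given there. ANGPT2, an angiogenic ligand whose gene overlaps MCPH1, had 135 and 125 CPM in GFP DMSO and 130.4 and 124 CPM in GFP Dox. ATOH8, a bHLH factor, had 9 and 15 counts in GFP DMSO against 8 and 9 in GFP Dox, so at this depth its control value carried a counting interval from 0.382 to 1.47 as a ratio.

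The genes that stood highest in the ranking were moderate in size. By the smallest p among protein-coding genes of at least 5 CPM with groups that did not overlap, SLC25A21 came first. SLC25A21, a mitochondrial carrier of oxoadipate on chromosome 14 (positions 36677921 to 37172606, minus strand), had 4.86 and 5.16 CPM in GFP DMSO and 7.53 and 7.60 CPM in GFP Dox. All 4 libraries were close to their group mean, and the log2 fold change was 0.59 (SE 0.15; edgeR, unadjusted p 0.000711, adjusted p 1). Its antisense gene SLC25A21-AS1 had 2.78 and 2.71 CPM in GFP DMSO and 3.64 and 2.92 CPM in GFP Dox, and reads of the pair may not have been told apart. After it ranked LLGL2, a polarity gene at -0.42, MMP15, and INPP5K, a phosphoinositide phosphatase at 0.37 on the log2 scale. The remaining 6, GVQW3, CTNNAL1, CCDC12, ZNF280D, HOXB3 and IKBKE, had log2 fold changes between -0.44 and 0.27.

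Within the expression classes, HOXA13 had the largest fold change from 1 to 5 CPM. HOXA13, a homeobox factor of posterior body regions on chromosome 7 (positions 27193503 to 27200091), had 1.98 and 2.01 CPM in GFP DMSO and 0.844 and 0.956 CPM in GFP Dox. The log2 fold change was -1.14 (SE 0.302; edgeR, unadjusted p 0.00096, adjusted p 1). IQGAP1, a scaffold of the actin cytoskeleton on chromosome 15 (positions 90388242 to 90502239), had the largest among protein-coding genes over 100 CPM. Its level was 737 and 714 CPM in GFP DMSO and 547 and 694 CPM in GFP Dox, with GFP Dox replicate 1 standing apart from the other libraries, and the log2 fold change was -0.23. Without that library it was -0.064, and a fit of the 4 GFP libraries alone with the replicate number as a block called it. TC2N, the largest among protein-coding genes under 1 CPM, had 0 counts in both GFP DMSO libraries and 8 and 1 in GFP Dox. The smallest p of all, 0.000229, belonged to C19orf73, named here after its values were seen, with 5 and 18 counts in GFP DMSO against 39 and 33 in GFP Dox (edgeR, unadjusted). C19orf73 overlaps LIN7B on the opposite strand, and LIN7B had a log2 fold change of 0.06.

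At the other end stood the 10 protein-coding genes with the tightest intervals around 0, none of which reached beyond -0.1612 or 0.1612 on the log2 scale. ENAH, an actin regulator on chromosome 1 (positions 225486765 to 225653142), was the tightest of all, with 281 and 283 CPM in GFP DMSO and 283 and 281 CPM in GFP Dox, and an interval from 0.897-fold to 1.12-fold. NLGN2, HIPK1, POLDIP2, PUM2, EIF2A, SNX5, FKBP10, SFXN1 and NUP62 followed, at mean levels between 91.3 and 207 CPM. Their order rests on fold changes that happened to be near 0, so it describes these libraries.

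Finally, the GFP line was set against the genes that responded in the SMARCB1 line, where 2234 genes (14%) were called between Dox and DMSO. Of these 2234 genes, 0 were called in the GFP line, as of all genes tested. Inside 1.5-fold there lay 1848 (82.7%) and inside 2-fold 2029 (90.8%), against 67.6% and 80% of all genes tested. The sets differ in level, since 6.47% of genes under 1 CPM were called in the SMARCB1 line against 16.6% from 5 to 20 CPM. At an unadjusted p under 0.05 in the GFP line, which 1.67% of all genes passed, 16 of the 2234 had the sign of the SMARCB1 line and 15 the opposite sign. In 2118 (94.8%) the fold change of the SMARCB1 line lay outside the 95% interval of the GFP line. That fold change chose the genes and its own error is left out, so this share is no test of a difference between the lines. The median absolute log2 fold change of these genes was 0.06 in the GFP line and 0.52 in the SMARCB1 line, where it had chosen them.

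**Figure D5:**
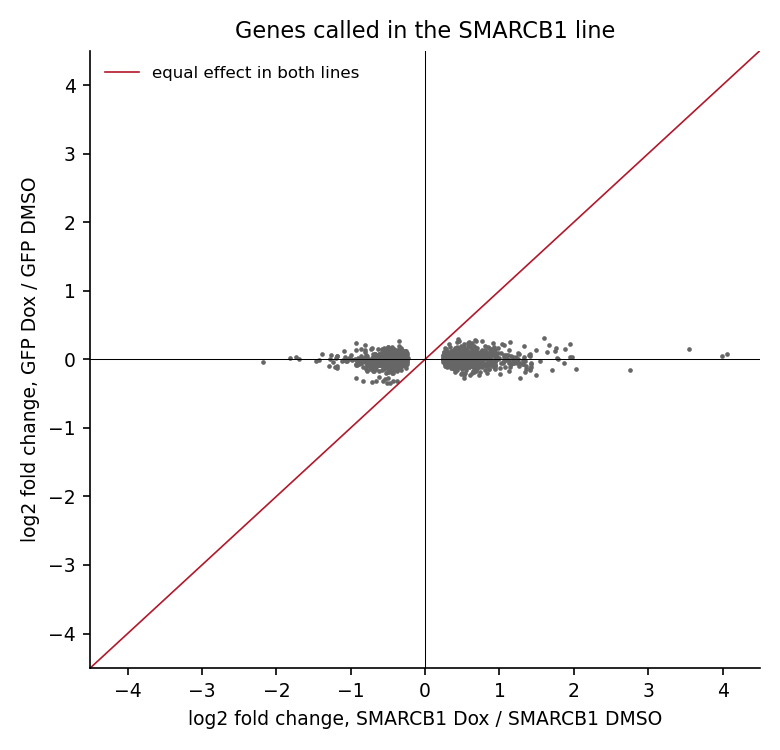
Log2 fold change with Dox in the GFP line against that in the SMARCB1 line for the 1722 genes called in the SMARCB1 line with a mean of at least 5 CPM in the GFP libraries; the red line marks equal effects. The points run from -2.18 to 4.06 along the SMARCB1 axis, which chose them, and from -0.35 to 0.31 along the GFP axis.

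An interaction contrast of the same fit tested whether the lines differed in their Dox effect. It contains the effect that chose the 2234 genes, so a higher share among them is partly built in. It was called in 750 of all genes tested (4.71%) and in 742 (33.2%) of the 2234. This number depended on single libraries, falling to 383 without GFP Dox replicate 1, 412 without GFP DMSO replicate 2, 414 without GFP Dox replicate 2 and 444 without SMARCB1 Dox replicate 1. With the replicate number as a block it rose to 1259. Genes that were weakly expressed in the GFP line were the least covered. Of the 441 genes that changed by more than 2-fold in the SMARCB1 line, 144 (32.7%) lay inside 1.5-fold in the GFP line and 254 (57.6%) inside 2-fold, and the difference was called in 221. By direction, 1015 of 1327 higher genes (76.5%) and 833 of 907 lower genes (91.8%) lay inside 1.5-fold.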

How the data were processed

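RNA was sequenced in 8 libraries of G401 cells, 2 in each of 4 groups taken from the sample titles. The authors deposited raw counts of reads in each gene, obtained with STAR and HTSeq (exons, intersection-strict mode, GENCODE v42, hg38). Tool versions and the strand option were not given in the sources used here, and the labels and the study's methods name different library kits, so antisense and overlapping genes were uncertain. Between 26.96% and 28.45% of the reads of a GFP library were in 5 entries that name no gene and were left out. Symbols came from GENCODE v44, which matched 62625 genes.

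All 8 libraries were fitted in edgeR (4.0.16, R 4.3.3) with its default expression filter, TMM scaling and 1 mean per group, so that the SMARCB1 line entered the estimate of the spread. Reported levels are CPM with TMM factors. All fold changes and limits are relative to this scaling, whose own error is not in the intervals, and RNA per cell was not measured. Standard errors were Wald errors on the quasi-likelihood scale, and 95% intervals and one-sided tests against 1.5-fold and 2-fold were derived from them. P-values were adjusted by Benjamini-Hochberg over all 15931 genes. A floor of 3 counts corresponded to 0.0798 to 0.101 CPM in 1 library. Intervals of count ratios cover counting error only. The steps were tested on simulated data. DESeq2 (1.42.0) and limma (3.58.1) were alternatives, as were other scalings, filters, a replicate block and fits without 1 library.

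Genes were named by rule: in each of 27 lists the members with an unadjusted p under 0.05 (at most 4), the highest CPM per kilobase and the largest fold change at 5 CPM or more; the 10 protein-coding genes of smallest p at 5 CPM or more without overlap; the largest fold change per class; the 10 tightest intervals; reference and qPCR genes; and SMARCB1. The members and lists were chosen with earlier results of these data known, and genes named as exceptions to a count, as overlapping partners or as markers were chosen after their values were seen. A gene that the rule names is not reported here. No per-sample columns were left unassigned.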

Additional observations from a re-analysis of the deposited data

Results flagged for a closer look

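The Dox effect differed between the GFP and SMARCB1 lines in 750 genes (4.71% of those tested). This was by edgeR's interaction test (Benjamini-Hochberg, adjusted p below 0.05), and 17 of the genes named here were among them. Several, such as IRF7, MMP15, MMP16, MMP19, HOXA13 and ZNF280D, were named for their GFP values. Those values enter the difference, so the number of 17 is no result. IRF7 and MMP15 were not called in the SMARCB1 line. The values that follow are the log2 fold change in the SMARCB1 line minus that in the GFP line. Among genes followed by qPCR they were 1.54 for C2orf72, 1.18 for FSTL3, 3.27 for ATOH8, 3.40 for CHST2, -1.05 for KBTBD7 and -1.09 for ANGPT2. Among metabolic and interferon genes they were 0.53 for HK1, 0.75 for DTX3L and 2.67 for IRF7. The matrix metalloproteinases gave 0.69 for MMP15, -1.16 for MMP16 and 3.42 for MMP19, and the SWI/SNF subunit PHF10 gave -0.46. The other values were -0.63 for ZNF280D, 2.04 for HOXA13, -1.08 for SLC25A21-AS1 and -5.49 for PAPPA. In HK1, DTX3L, ZNF280D, PHF10, ANGPT2, FSTL3, KBTBD7 and CHST2 the GFP line lay inside 1.5-fold. PAPPA had 0 and 0 counts in GFP DMSO against 2 and 5 in GFP Dox, and CHST2 and MMP19 each had 2 and 2 counts in SMARCB1 DMSO, under the floor of 3 counts, so these 3 values depend on the prior count and are no bounds.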

How the results depend on the processing

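No gene was called in the GFP line under any other scaling, with the replicate block, with the stricter filter, in DESeq2 or limma, or without any 1 library, and the genes inside 1.5-fold numbered between 9600 and 10863 without 1 library. Without an expression filter 1 gene was called, C19orf73, and 466 of 25814 genes had an unadjusted p under 0.05. With at least 10 counts in each GFP library 155 of 13962 genes did, and in DESeq2 103 of 28931. The main fit had 266 of 15931, so these counts come from different sets of genes. A replicate block in the 4 GFP libraries alone called 2 genes, MALAT1 and IQGAP1. With it, 807 of 15931 genes had an unadjusted p under 0.05, near the share that would pass without any effect. The replicate block in all 8 libraries called 0 genes, with 339 at an unadjusted p under 0.05, and called the difference between the lines in 1259 of the SMARCB1-responsive genes against 742. Deviations of same-numbered libraries correlated across genes with r = 0.0903 in the GFP line over all genes tested and 0.429 at 5 CPM or more. Over all pairs of groups r ran from 0.0309 to 0.148 and from 0.123 to 0.429, so a shared number may mark a shared experiment. The labels do not say so and there are only 2 numbers, so the fit without the block was kept.

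Without 1 library the difference was called in 383 to 774 genes, and the median of the mitochondrial mRNAs ran from -0.20 to -0.0129, their share difference from -2.38 to -0.42 percentage points. Of 243 medians of the 27 lists under alternatives, 35 moved by more than the replicate spread. For 112 named genes, 1058 values stayed within it and 62 moved. Scaling to library totals moved the median of all genes to 0.019 and the share of higher genes among those with an unadjusted p under 0.05 to 48.9%. Depth limits genes under 5 CPM.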
